A study of Mus musculus with 10 samples.

Results

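The 9 Mueller glia genes Glul, Slc1a3, Aqp4, Sox9, Vim, Gfap, Kcnj10, Dkk3 and Apoe were taken by gene symbol from the occupancy table, ignoring case and the numbers added to repeated symbols. The rule uses no measured value, but the genes were picked with earlier results of these data known. They stood for 9 of 20044 gene symbols and 10 of 25152 entries, since Gfap had 2 entries with the same values in every library. H3K4me2 and H3K27me3 had been immunoprecipitated from pooled mouse retinas at 4 ages, E17.5 before birth and PN1, PN7 and PN15 (postnatal days) after it, and every combination of mark and age had 1 library, 8 in all. A value was the normalized occupancy of a mark, meaning the reads up to 2.5 kb to either side of a transcription start site (TSS), scaled by all mapped reads. The methods of the study give C57BL/6j wild type mice, the sample labels name Pde6b (rd1/rd1) mutant mice for every library and write the embryonic stage as E17, and the methods were followed here for genotype and age. Labels and methods also swap the catalogue numbers of both antibodies, and the mark was taken from the title of each sample. The whole retina was used at every stage, so no value belongs to glia alone.

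Mueller glia are the radial glia of the retina. Their processes span it from the inner to the outer limiting membrane, they are among the last cells born from the common progenitor, together with rods and bipolar cells, and they take up glutamate, clear potassium and water and supply neurons. H3K4me2 is deposited at active and poised promoters, whereas H3K27me3 is deposited by Polycomb repressive complex 2 at silenced genes. Several of the 9 genes are also used outside mature Mueller glia: Sox9 and Vim in progenitors, Gfap and Aqp4 in the astrocytes of the nerve fibre layer, and Dkk3 and Apoe in other retinal cells.

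H3K4me2 lay above the background at all 9 genes at E17.5 (77.2% of all gene symbols), PN1 (72%), PN7 (72.1%) and PN15 (70.9%), and the genes parted into different courses. From E17.5 to PN15, Sox9 and Dkk3 had less than 0.5 of their H3K4me2 relative to the median gene, and Glul, Aqp4 and Gfap lay above the median gene, of which only Gfap did so beyond counting error. A lower H3K4me2 with a higher H3K27me3 was found at 5 genes (Slc1a3, Sox9, Vim, Dkk3 and Apoe), against 24.5% of all symbols, a pairing noticed after the values had been seen. This pairing was also found in lists of other genes. The H3K27me3 difference of Slc1a3 was within counting error. Sox9 stood out by level, with H3K27me3 of 39 at E17.5 and 132 at PN15. A smaller number of marked cells and less of a mark per cell cannot be told apart in whole retina, and rods make up most of the mature tissue.

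No condition had a second library, so none of the differences could be compared with a spread between replicates and no test was run. The precision given is the 95% counting interval from the reads behind a value, and it covers counting error only. It was derived from the number of reads that an occupancy of 1 stands for, which was read in 5 libraries from a periodic unevenness in how often each whole-number value occurred (1.06 to 3.2 reads). In 3 libraries (H3K4me2 at PN7 and PN15 and H3K27me3 at E17.5) no such period was found, and 1 read, the fewest possible, was assumed. With 3 reads as the floor, the smallest occupancy that could be told from 0 was between 0.938 and 3. The summed occupancy of a library was between 590366 and 1200594. The H3K4me2 library at PN7 stood apart, with 19.5% of its entries at 0 against 0.362% to 2.52% in the other H3K4me2 libraries, so values that rest on it are also given over other stages. The 95th percentile of 1053 olfactory receptor entries, which the retina is not expected to use, served as background: 4, 8, 1 and 7 for H3K4me2 and 21, 22, 22.4 and 29 for H3K27me3 at E17.5, PN1, PN7 and PN15. All 15 listed rod genes were above the background in H3K4me2 at PN15 and also at E17.5, against 70.9% and 77.2% of all symbols. The retinal origin showed in their level, with a median of 95 at PN15 against 11 at E17.5.

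The stretches of 250 bases upstream of the TSS of 4 of the genes are shown because these promoters stand for the courses described below: Glul for H3K4me2 with little H3K27me3, Dkk3 and Sox9 for less H3K4me2 with more H3K27me3, and Gfap for H3K4me2 that was highest at the last stage. Positions are in NCBIM37 (mm9), the build of the authors, sequences run 5′ to 3′ on the strand of the gene, and capitals mark CpG dinucleotides. The stretches are Glul on the plus strand of chr1:155746824-155747073, Dkk3 on the minus strand of chr7:119302572-119302821, Sox9 on the plus strand of chr11:112643288-112643537, and Gfap on the minus strand of chr11:102758515-102758764.
Glul: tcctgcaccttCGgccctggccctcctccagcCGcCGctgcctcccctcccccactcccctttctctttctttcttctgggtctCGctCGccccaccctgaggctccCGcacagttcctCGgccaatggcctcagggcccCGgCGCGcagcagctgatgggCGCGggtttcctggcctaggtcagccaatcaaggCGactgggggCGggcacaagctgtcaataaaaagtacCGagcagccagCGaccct
Dkk3: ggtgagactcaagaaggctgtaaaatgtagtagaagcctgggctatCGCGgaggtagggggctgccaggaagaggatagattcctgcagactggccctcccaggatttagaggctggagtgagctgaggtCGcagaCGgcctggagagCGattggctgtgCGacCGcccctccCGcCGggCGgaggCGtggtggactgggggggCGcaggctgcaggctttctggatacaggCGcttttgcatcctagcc
Sox9: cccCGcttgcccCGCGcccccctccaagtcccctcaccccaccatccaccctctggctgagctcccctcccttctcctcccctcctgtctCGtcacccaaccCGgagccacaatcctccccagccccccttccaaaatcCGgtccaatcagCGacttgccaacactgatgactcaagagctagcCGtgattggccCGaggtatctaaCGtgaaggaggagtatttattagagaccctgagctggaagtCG
Gfap: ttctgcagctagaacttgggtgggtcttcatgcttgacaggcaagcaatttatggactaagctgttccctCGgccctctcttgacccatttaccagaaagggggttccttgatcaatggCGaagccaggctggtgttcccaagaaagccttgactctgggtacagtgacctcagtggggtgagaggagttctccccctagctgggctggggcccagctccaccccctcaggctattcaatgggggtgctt
These 250 bases held 16 CpG for Glul, 13 for Dkk3, 11 for Sox9 and 2 for Gfap. The stretch of Gfap lies within an intron of a longer noncoding transcript of the gene, and the first bases of the Sox9 stretch overlap the first exon of the lincRNA BC006965 on the other strand, whose TSS lies at an offset of -248 bp from that of Sox9. Reads of the Sox9 window therefore cannot be divided between these genes. The TSS taken for every other annotated gene lay more than 5 kb from the TSS of the remaining 8 genes, although Apoe and Gfap have further starts of their own.

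Glul encodes glutamine synthetase, which turns the glutamate taken up by Mueller glia into glutamine. It lies on the plus strand of chromosome 1 from 155747074 to 155756853. Its H3K4me2 was 79, 67, 94 and 111 in the order of the 4 stages, the highest value of the 9 genes at PN15 and among the highest of all genes at every stage, with 86.9% to 97.3% of gene symbols below it. Its H3K27me3 was 13, 3, 5 and 5, under the receptor background in every library. After subtraction of the median change of all genes (centring), H3K4me2 at PN15 was 1.28 times that at E17.5, with a counting interval of 0.995 to 1.66 that includes 1. H3K27me3 was at 0.429 of its E17.5 level (0.126 to 1.14), which passed the 2-fold rule of size but rests on the value of 13 at E17.5 alone: from PN1 to PN15 the centred log2 change was 0.58.

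Slc1a3 encodes GLAST, the glutamate and aspartate transporter through which Mueller glia clear glutamate, and lies on the minus strand of chromosome 15 from 8584124 to 8660764. Its H3K4me2 was 88, 63, 36 and 61, so that PN7 was lowest and PN15 stood below E17.5. Its H3K27me3 was 14, 20, 12 and 23, below the receptor background in all 4 libraries. Relative to the median gene, H3K4me2 at PN15 was 0.635 of that at E17.5 (0.464 to 0.854), beyond counting error but short of 2-fold. The share of gene symbols with less H3K4me2 went from 92.4% at E17.5 to 62.3% at PN15. The ratio for H3K27me3 was 1.6 (0.816 to 3.36), within counting error.

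Of the other members of the glutamate transporter family, 6 were in the table. Slc1a2, the transporter GLT-1, had H3K4me2 of 77, 42, 71 and 99 and H3K27me3 of 92, 83, 33 and 15, the latter at 0.172 of its E17.5 level. Slc1a7, the transporter EAAT5 of photoreceptors and bipolar cells, had H3K4me2 of 23, 12, 29 and 98, a ratio of 3.76. Slc1a1, the neuronal transporter EAAC1, had H3K27me3 of 44, 42, 22 and 17, a ratio of 0.4. The median centred log2 change of the 6 was 0.33 for H3K4me2 and -0.61 for H3K27me3, of opposite sign to the -0.65 and 0.68 of Slc1a3.

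**Figure D1:**
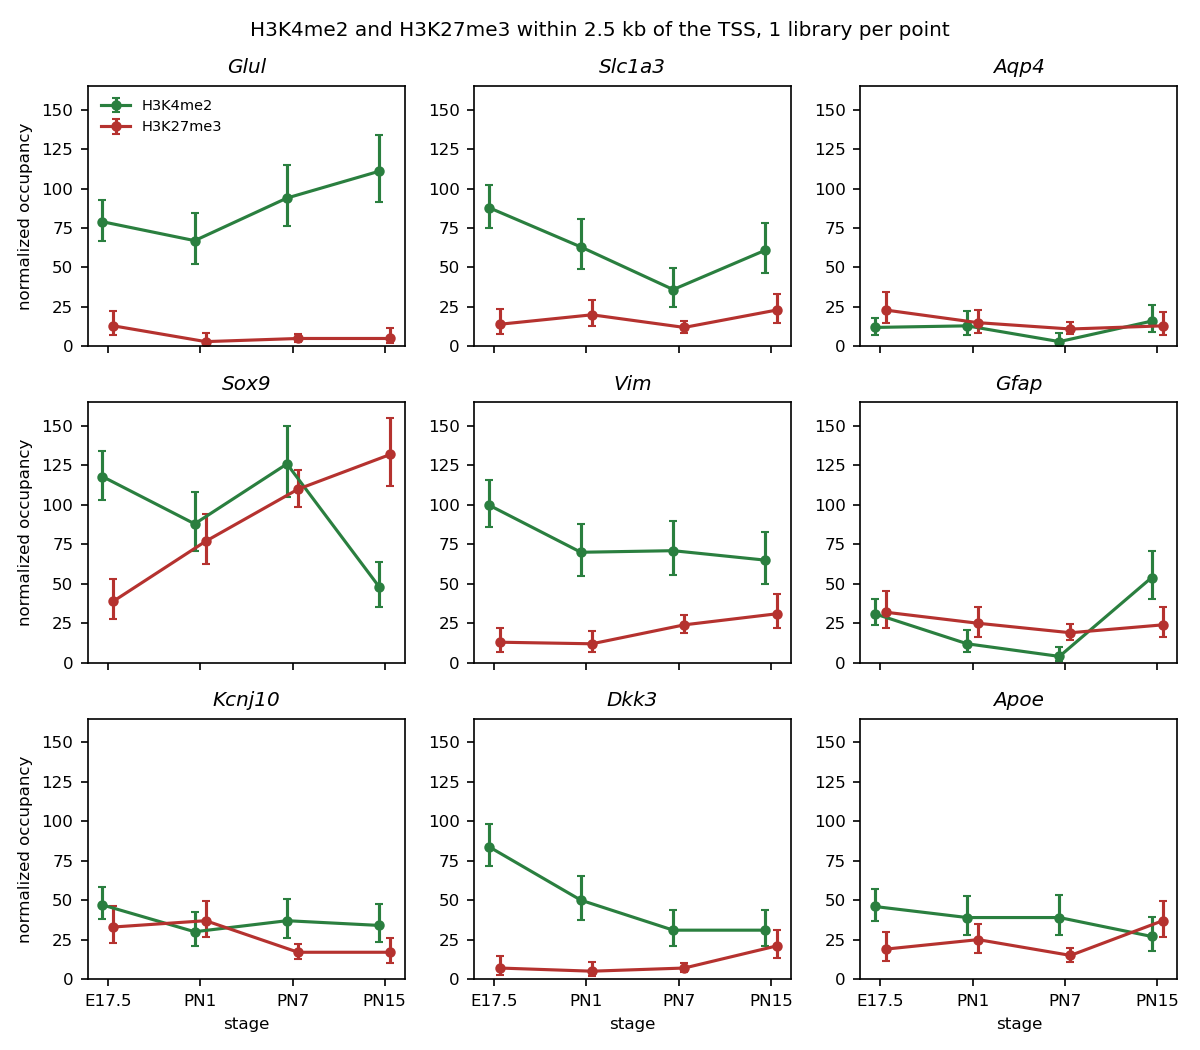
Normalized occupancy (y axis, no unit) of H3K4me2 (green) and H3K27me3 (red) at the 9 Mueller glia genes at E17.5, PN1, PN7 and PN15 (x axis), 1 library per point, with bars for the 95% counting interval. Glul kept H3K4me2 of 67 or more over H3K27me3 of 13 or less, H3K27me3 of Sox9 passed its H3K4me2 at PN15 (132 against 48), and H3K4me2 of Gfap was lowest at PN7 (4) and highest at PN15 (54).

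Aqp4 and Kcnj10 encode the water channel aquaporin-4 and the potassium channel Kir4.1, which lie together in the end feet of Mueller glia. Aqp4 lies on the minus strand of chromosome 18 from 15547903 to 15562193 and had the lowest H3K4me2 of the 9 genes at E17.5, PN7 and PN15, with values of 12, 13, 3 and 16. Only 30.4% to 35.9% of gene symbols had less. Its H3K27me3 was 23, 15, 11 and 13, above the receptor background at E17.5 (23 against 21) and below it later. From E17.5 to PN15 neither mark moved beyond counting error, with 1.19 (0.608 to 2.47) for H3K4me2 and 0.583 (0.276 to 1.14) for H3K27me3. The step from PN7 to PN15 was 2.12 for H3K4me2, past the rule of size, but its interval (0.763 to 14.3) includes 1 because the value of 3 at PN7 is at the floor.

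Kcnj10 lies on the plus strand of chromosome 1 from 174271341 to 174304216. Its H3K4me2 was 47, 30, 37 and 34, near the middle of all genes at each stage (45.3% to 67.7% of symbols below it). Its H3K27me3 was 33 and 37 at E17.5 and PN1, above the receptor background, and 17 at both PN7 and PN15, below it. Both marks were thus lower at PN15, by ratios of 0.665 (0.429 to 0.987) and 0.529 (0.27 to 0.91), and neither ratio passed 2-fold. It was the only one of the 9 genes on which both marks were below the median change.

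Among relatives of these channels, Aqp1, another water channel, had H3K4me2 of 16, 10, 5 and 121, a ratio of 6.54, while its H3K27me3 stayed between 9 and 15. Kcnj14, another inward rectifier, had H3K4me2 of 7, 2, 2 and 115, a ratio of 13.2. Aqp5 had H3K27me3 of 492, 566, 311 and 145, far above the 11 to 23 of Aqp4. Of the 10 other aquaporins 2 were at least 2-fold higher and 4 at least 2-fold lower in H3K4me2, and of the 14 other inward rectifiers 2 and 4, against 5.17% and 12.8% of all symbols.

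Sox9 encodes an HMG-box transcription factor that progenitors and Mueller glia share and that glial development requires. It lies on the plus strand of chromosome 11 from 112643538 to 112649074. H3K4me2 was 118, 88, 126 and 48 at the 4 stages, the highest of the 9 genes up to PN7 and only the fifth at PN15. H3K27me3 was 39, 77, 110 and 132, highest of the 9 genes in every library and above the receptor background in each. The counting intervals of H3K4me2 at E17.5 (103 to 134) and PN15 (35.4 to 63.6) did not overlap, nor did those of H3K27me3 (27.7 to 53.3 and 112 to 155).

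After centring, H3K4me2 of Sox9 at PN15 was 0.375 of its E17.5 level (0.266 to 0.509) and H3K27me3 was 3.33 times (2.36 to 4.94). The lower rank of H3K4me2 appeared at the last stage: 99.1% to 99.5% of gene symbols were below Sox9 up to PN7 and 53.2% at PN15. From E17.5 to PN7, in contrast, the centred log2 change was 1.03, since the median gene had less H3K4me2 in the PN7 library. H3K27me3 was higher at each later stage than at the one before it, with centred ratios of 1.95 (1.35 to 2.95), 1.59 (1.27 to 2.03) and 1.2 (0.983 to 1.45).

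Of the other SoxE genes, Sox8, also made by glia, had the direction of Sox9 in both marks, with H3K4me2 of 104, 81, 80 and 49, a ratio of 0.434, and H3K27me3 of 40, 66, 42 and 72, a ratio of 1.78. Sox10, a factor of oligodendrocytes and neural crest, had low H3K4me2 (13, 14, 7 and 5) and H3K27me3 of 294, 327, 130 and 97. The genes nearest to Sox9 over all 8 libraries, by Euclidean distance of log2(occupancy + 1), were Gfra1 (0.835), Epha4 (0.891) and Lgr5 (0.965). Gfra1, a receptor for GDNF family ligands, had H3K4me2 of 134, 82, 126 and 62 and H3K27me3 of 40, 47, 108 and 117.

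Vim encodes vimentin, the intermediate filament of progenitors and Mueller glia, and lies on the plus strand of chromosome 2 from 13495554 to 13504453. Its H3K4me2 was 100, 70, 71 and 65, with 96.7% of gene symbols below it at E17.5 and 65.3% at PN15. Its H3K27me3 was 13, 12, 24 and 31, below the receptor background in the first pair of libraries and just above it in the second (24 against 22.4 and 31 against 29). The ratios from E17.5 to PN15 were 0.596 (0.439 to 0.789) for H3K4me2 and 2.29 (1.25 to 4.97) for H3K27me3. The receptor background of H3K27me3 was itself higher at PN15 than at E17.5 (29 against 21), and its part in the ratio was not tested.

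Gfap encodes the glial fibrillary acidic protein, which astrocytes carry and Mueller glia gain upon injury, and lies on the minus strand of chromosome 11 from 102748650 to 102762226. Its H3K4me2 was 31, 12, 4 and 54, lowest at PN7 and highest at PN15, with counting intervals of 1.09 to 10.2 and 40.6 to 70.5 for these stages. H3K27me3 was 32, 25, 19 and 24, above the receptor background at E17.5 and PN1 only. From PN7 to PN15 the centred ratio of H3K4me2 was 5.5 (2.49 to 25.7), and 98.9% of gene symbols had a lower one. From E17.5 it was 1.57 (1.07 to 2.34), so the size of this difference rested on the library it was taken from, and from PN1 the centred log2 change was 1.58. The ratio of H3K27me3 was 0.758 (0.443 to 1.31), within counting error, and its direction turned to a log2 change of 0.15 when the change was centred on marked genes.

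Among the other intermediate filament genes, Nes, the progenitor filament nestin, resembled Vim in direction, with H3K4me2 of 74, 45, 47 and 39 and H3K27me3 of 23, 51, 63 and 93, ratios of 0.486 and 3.92. Nefh, the heavy neurofilament of neurons, went the other way, with H3K4me2 of 26, 26, 70 and 80 and H3K27me3 of 457, 475, 262 and 45. All 8 of these relatives were above the receptor background in H3K27me3 at E17.5, against 24.3% of all symbols. Their median was 211.5, against 13 for Vim and 32 for Gfap.

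Dkk3 encodes a secreted glycoprotein related to the Dickkopf inhibitors of Wnt signalling, and lies on the minus strand of chromosome 7 from 119259533 to 119302571. Its H3K4me2 was 84, 50, 31 and 31, and its rank among gene symbols went from 90% below it at E17.5 to 43.7% at PN15. H3K27me3 was 7, 5, 7 and 21, lower than the receptor background in each library. The ratio for H3K4me2 was 0.343 (0.221 to 0.497), the lowest of the 9 genes, and that for H3K27me3 was 2.75 (1.25 to 8.22), between values that were both under the background. Dkk2, an inhibitor or activator of Wnt signalling depending on context, had H3K4me2 of 104, 43, 50 and 27, a ratio of 0.243, but H3K27me3 of 95, 115, 107 and 68. Dkk1 had H3K27me3 of 253, 280, 285 and 131. Of the 4 other Dickkopf genes 3 were at least 2-fold lower in H3K4me2, against 12.8% of all symbols.

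Apoe encodes apolipoprotein E, a lipid carrier that glia secrete, and lies on the minus strand of chromosome 7 from 20281458 to 20284515. Its H3K4me2 was 46, 39, 39 and 27 and its H3K27me3 was 19, 25, 15 and 37. H3K27me3 was above the receptor background at PN1 (25 against 22) and PN15 (37 against 29). H3K4me2 at PN15 was 0.543 of its E17.5 level (0.333 to 0.832) and H3K27me3 was 1.9 times (1.1 to 3.51), so both passed counting error and neither passed 2-fold. Among its neighbours on the chromosome, Apoc1 had H3K4me2 of 25, 22, 12 and 7, a ratio of 0.281, and Tomm40, of the mitochondrial import pore, had 64, 32, 41 and 85, a ratio of 1.21. None of the 5 neighbours was above the receptor background in H3K27me3 at E17.5 or PN15, against 24.3% and 19.3% of all symbols.

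Counted over the 9 genes, the change of H3K4me2 from E17.5 to PN15 passed 2-fold upward at 0 and downward at 2 (Sox9 and Dkk3), where 5.17% and 12.8% of all gene symbols did so. The median gene of the table had a log2 change of 0.13 in this mark, and the median of the 9 genes after centring was -0.65, with 6 of 9 below the median gene. For H3K27me3, 3 genes passed upward (Sox9, Vim and Dkk3) and 1 downward (Glul), against 12.2% and 16.1% of all symbols. The median gene had 0.00, and the median of the 9 genes was 0.68. Centring on the genes with both libraries above the background, in place of all genes, moved the split of all symbols to 27.9% upward and 4.83% downward, and that of the 9 genes to 5 and 0. The opposite of the pairing of lower H3K4me2 and higher H3K27me3 was found at 3 of 9 genes (Glul, Aqp4 and Gfap) and 26.7% of all symbols. In the lists described below, the pairing itself was found at 9 of 14 glial fate regulators and 9 of 23 other Mueller glia genes. It was found at 8 of 11 progenitor genes, 1 of 8 bipolar cell genes and 0 of 15 rod genes. With PN7 in place of PN15, only 1 of the 5 genes of that pairing, Dkk3 (-0.47 and 0.15), kept it, since H3K4me2 of Sox9, Vim and Apoe lay above the median gene and H3K27me3 of Slc1a3 and Apoe below it.

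**Figure D2:**
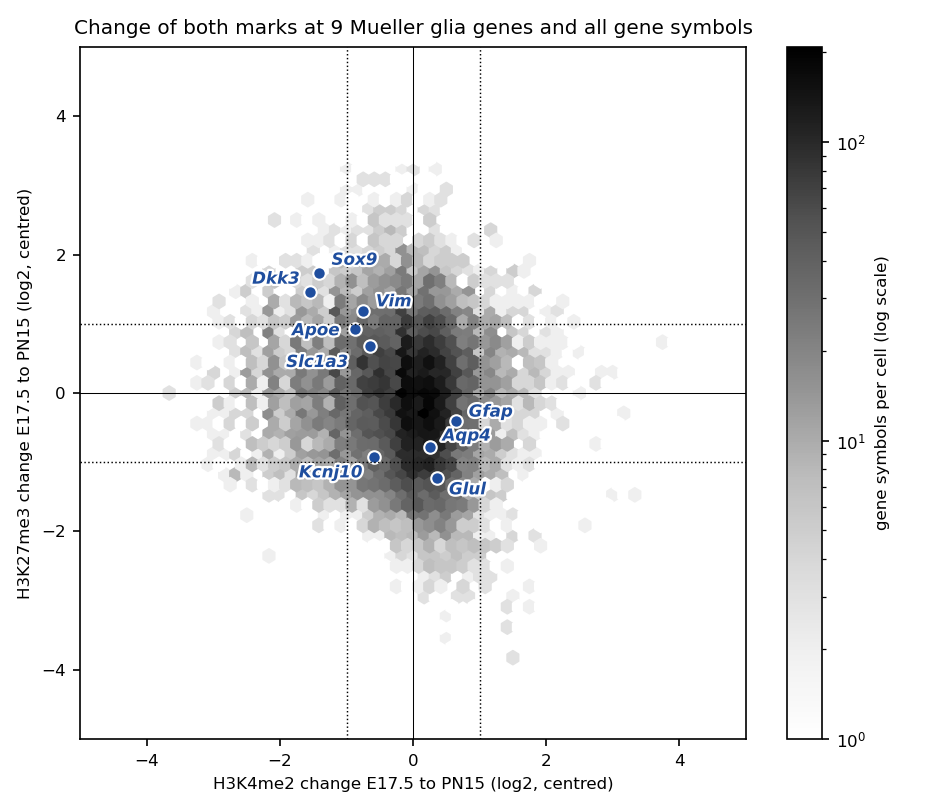
Centred log2 change from E17.5 to PN15 of H3K4me2 (x axis) and H3K27me3 (y axis) for all 20044 gene symbols (grey, darker for more symbols per cell on a log scale) and the 9 Mueller glia genes (blue), with dotted lines at 2-fold. Sox9 and Dkk3 lie beyond 2-fold in both marks, lower in H3K4me2 and higher in H3K27me3, and Kcnj10 alone lies below the median gene in both.

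Between neighbouring stages, most of the 9 genes that passed 2-fold in H3K4me2 after centring did so from PN7 to PN15. That step rests on the PN7 library, which had 19.5% of its entries at 0. From E17.5 to PN1, 0 genes passed 2-fold in either direction, against 13.7% of all symbols upward and 1.11% downward. From PN1 to PN7, Sox9 passed upward with a ratio of 2.02 (1.54 to 2.68) and Aqp4 downward with 0.404 (0.059 to 1.15), against 13.7% and 26.6%. From PN7 to PN15, 2 genes passed upward (Aqp4 and Gfap) and 5 downward (Sox9, Vim, Kcnj10, Dkk3 and Apoe), against 15.9% and 17.1%. The median gene had H3K4me2 of 24 in the PN7 library and 42 at PN15, so that Dkk3, with 31 in both, counted as lower. Vim, with 71 and 65, and Kcnj10, with 37 and 34, likewise differed little before centring.

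For H3K27me3, from E17.5 to PN1 the change passed 2-fold upward at 0 genes and downward at 1, Glul, whose ratio was 0.286 (0.0599 to 0.816), against 5.77% and 8.27% of all symbols. From PN1 to PN7 it passed upward at Vim, with 2.15 (1.25 to 4.1), and downward at none, against 8.44% and 9.33%. From PN7 to PN15 it passed upward at Dkk3, with 2.75 (1.64 to 5.69), and at Apoe, with 2.38 (1.57 to 3.77), against 15%, and downward at none, against 9.7%. No count over the 9 genes can be read as more than a description at this number of genes.

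All 9 genes were above the receptor background in H3K4me2 at E17.5, PN1, PN7 and PN15, as were 77.2%, 72%, 72.1% and 70.9% of all symbols. At PN7 that background was 1, so the values of 3 for Aqp4 and 4 for Gfap passed it only narrowly. H3K27me3 was above the background at 4 genes at E17.5 (Aqp4, Sox9, Gfap and Kcnj10; 24.3% of all symbols), at 4 at PN1 (Sox9, Gfap, Kcnj10 and Apoe; 24.8%), at 2 at PN7 (Sox9 and Vim; 24.3%) and at 3 at PN15 (Sox9, Vim and Apoe; 19.3%). These H3K27me3 counts depended on the background: at the 99th percentile of olfactory receptors 1 gene was above it at E17.5 and 1 at PN15, and at the 95th percentile of vomeronasal receptors 6 were at PN15. The genes above the main background made up those with both marks, 4, 4, 2 and 3, against 22.1%, 20.9%, 21% and 15.2%. Sox9 was the only gene with both marks in every stage. The median H3K4me2 of the 9 genes was 79, 50, 37 and 48, against 41, 27, 24 and 42 for all symbols, and the median share of symbols below them was 86.9%, 82%, 67.7% and 53.2%.

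The closest pairs over the 8 libraries were Kcnj10 and Apoe, at a distance of 1.52, and Slc1a3 and Vim, at 1.59, and the farthest was Aqp4 and Sox9, at 8.44. Among all symbols of the table, the nearest were Stk35 (0.703), Ubn1 (0.722) and Sec14l1 (0.783) for Glul, Tmem2 (0.61), Timm17a (0.767) and Ndufb10 (0.812) for Slc1a3, and Pdzrn3 (0.519), Bcl2 (0.742) and Cdca7 (0.75) for Vim. For Gfap they were 6530401D17Rik (0.874), Zmat1 (1.22) and 2900062L11Rik (1.37), and for Aqp4 Bex4 (0.734), 1700024G13Rik (0.956) and Elane (0.959). Kcnj10 was nearest to 4933429F08Rik (0.574), 2210411K11Rik (0.611) and Gmpr (0.614), Dkk3 to Golm1 (0.806), Tppp3 (0.894) and Sema4a (1.12), and Apoe to 2010002N04Rik (0.753), Slc39a8 (0.834) and Arhgap24 (0.874). Bex4, for example, had H3K4me2 of 14, 11, 3 and 16 and H3K27me3 of 18, 17, 15 and 17.

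Other genes of mature Mueller glia were looked at as a list of 23. H3K4me2 was at least 2-fold lower from E17.5 to PN15 at 7 of them and higher at 0, against 12.8% and 5.17% of all symbols. H3K27me3 was at least 2-fold higher at 5 and lower at 5, against 12.2% and 16.1%, and the medians of the marks were -0.29 and 0.16. With centring on marked genes, the H3K27me3 counts were 10 higher and 1 lower, against 27.9% and 4.83%. Rlbp1, which encodes the retinaldehyde-binding protein of the visual cycle in Mueller glia and pigment epithelium, had H3K4me2 of 37, 26, 9 and 6 and H3K27me3 of 8, 11, 55 and 136. Its H3K27me3 at PN15 was 15.2 times that at E17.5, larger than any ratio of the 9 genes. Vegfa, the vascular growth factor, kept H3K4me2 (73, 52, 76 and 94) while its H3K27me3 was 4, 8, 10 and 30, and Tgfb2, a growth factor of the TGF-beta family, had H3K27me3 of 11, 8, 36 and 57.

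Regulators of glial fate were a list of 14 transcription factors and Notch pathway or signalling genes. H3K27me3 was at least 2-fold higher at 6 and lower at 2, with a median of 0.90, against 12.2% and 16.1% of all symbols. With centring on marked genes these counts were 10 and 1, against 27.9% and 4.83%. H3K4me2 was lower at 4 and higher at 0, with a median of -0.31, against 12.8% and 5.17%. Sox2, a factor of progenitors and Mueller glia, had H3K4me2 of 104, 56, 124 and 36 and H3K27me3 of 26, 75, 112 and 182, against 118, 88, 126 and 48 and 39, 77, 110 and 132 for Sox9. Hes1, the Notch effector, had H3K4me2 of 100, 62, 152 and 85 and H3K27me3 of 13, 27, 44 and 73. Nfix, a nuclear factor I gene that late progenitors and glia use, had H3K27me3 of 382, 391, 116 and 88, a ratio of 0.232. At PN15, 11 of the 14 regulators had both marks, as did 3 of the 9 members, 6 of the 23 other effectors and 15.2% of all symbols. These differences were not tested.

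**Figure D3:**
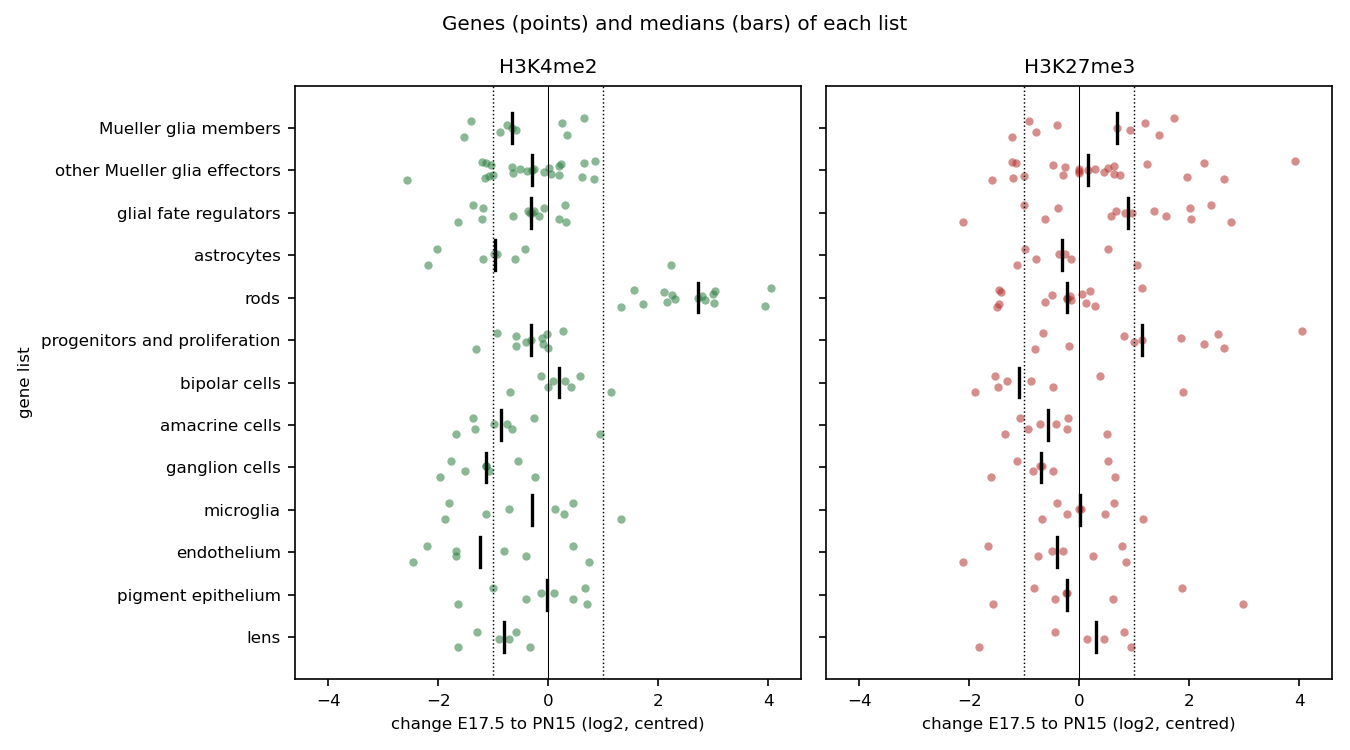
Centred log2 change from E17.5 to PN15 (x axis) of H3K4me2 (left) and H3K27me3 (right) for each gene (points) of the 9 Mueller glia genes and of 12 other gene lists (y axis), with the median of each list as a bar and dotted lines at 2-fold. All 15 rod genes lie beyond 2-fold in H3K4me2 with a median of 2.73, while the Mueller glia genes have a median of -0.65 and the glial fate regulators a median of 0.90 in H3K27me3.

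Lists for other cells of the retina or next to it were measured in the same way. All 15 rod genes were at least 2-fold higher in H3K4me2, against 5.17% of all symbols. In H3K27me3 0 of them were above the receptor background at PN15, against 19.3% of all symbols. The 8 astrocyte genes had a median of -0.96 in H3K4me2 and 7 of them lay below the median gene. The exception was Aldoc, with 11, 10, 13 and 61, while Pax2, a factor of the optic nerve astrocyte lineage, had 49, 26, 27 and 11. For the 8 genes of microglia H3K4me2 lay between 2 and 15 at E17.5, with 3 above the background, and between 1 and 10 at PN15, with 1 above it. For the 8 genes of endothelium it lay between 3 and 112 at E17.5 and between 0 and 70 at PN15, with 6 and 4 above the background, Pecam1 being listed at 0 at PN15. Of all symbols, 77.2% at E17.5 and 70.9% at PN15 were above the H3K4me2 background. The part of these cells in the values of the 9 genes was not tested.

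The CpG content of the promoters differed among the 9 genes. In 1 kb around the TSS the ratio of observed to expected CpG was 0.80 for Sox9, 0.70 for Glul, 0.65 for Kcnj10, 0.55 for Slc1a3, 0.52 for Vim, 0.43 for Dkk3, 0.42 for Gfap, 0.39 for Apoe and 0.30 for Aqp4. With 19227 gene symbols with 1 TSS in mm9 divided into groups of 6409 by this ratio, Aqp4 fell in the lowest group, Sox9 in the highest and the other 7 in the middle one. The median H3K4me2 of these groups at E17.5 was 4, 64 and 47, and 38.6%, 99.6% and 94.9% of their symbols were above the receptor background. Aqp4, with 12 at that stage, lay above the median of its group, and Slc1a3, Vim, Dkk3 and Glul, with 88, 100, 84 and 79, above the 47 of theirs. Kcnj10 with 47, Apoe with 46 and Gfap with 31 did not.

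**Figure D4:**
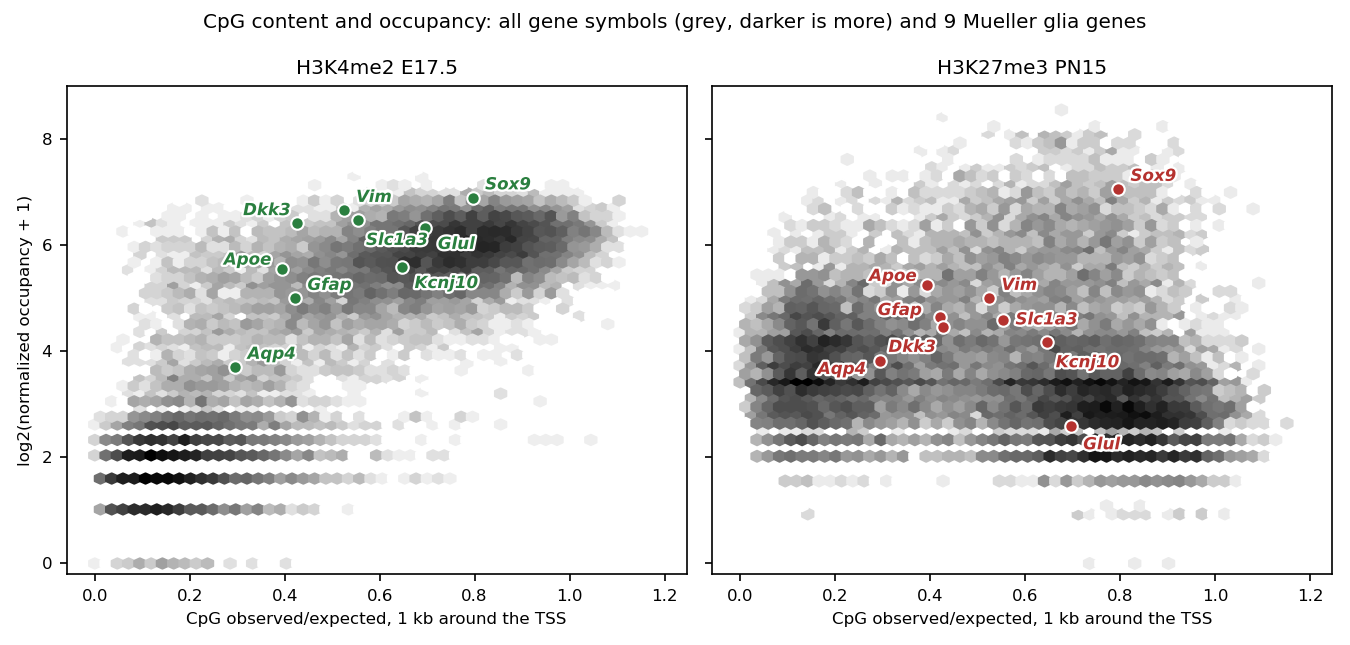
Observed over expected CpG in 1 kb around the TSS (x axis, no unit) and log2(normalized occupancy + 1) (y axis) of H3K4me2 at E17.5 (left) and H3K27me3 at PN15 (right), with all gene symbols in grey (darker for more) and the 9 Mueller glia genes in colour. Aqp4 has the lowest CpG ratio (0.30) and the lowest H3K4me2 (12) of the 9, and Sox9 the highest CpG ratio (0.80) and the highest values in both panels (118 and 132).

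Short motifs were searched on both strands of the 250 bases upstream of each TSS and are given as letters only. CCAAT was present at 7 genes (all but Gfap and Apoe) and 35.3% of all promoters, and GGGCGG at 4 (Glul, Slc1a3, Kcnj10 and Dkk3) and 44.8%. The HMG-box motif ACAAAG was present at Vim and Apoe and 14.7% of all, and TATAAA at Slc1a3 and 11.6%. TTCNNNGAA, a STAT motif, was present at Slc1a3 and 6.7% of all promoters, and TGANTCA, an AP-1 motif, at Sox9 and 5.9%. No motif searched was shared by all 9 genes.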

How the data were processed

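ChIP-Seq libraries of H3K4me2 and H3K27me3 from mouse retina at 4 stages were analysed, 1 per mark and stage. The authors mapped reads with Bowtie 0.12.4 (per the submitters' processing notes) to mm9, removed reads with several positions, summed read midpoints within 2.5 kb of each RefSeq TSS, normalized the sums to total mapped reads and rounded them to whole numbers. These deposited values are scores, to which count models do not apply. Summing over 5 kb merges marks of nearby starts, and rounding limits low values. Of 10 samples, 2 without a column (H3K4me2 of rd1/rd1 retinas and anti-GFP) were not analysed here. A letter b follows the mark in the column name for H3K27me3 at PN7.

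Where a symbol had several entries, that with the largest total over 8 libraries was used. Changes were log2((late + 1)/(early + 1)), with a pseudocount of 1, minus the median over 20044 symbols, and a 2-fold rule of size was applied. Because of the pseudocount these ratios understate the changes of low genes. Reads per unit of occupancy were read from periodic unevenness in each library's histogram of values, a step tested on simulated data. Counting intervals are exact Poisson 95% intervals, or exact binomial ones for ratios.

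TSS positions were those of the most 5′ transcript in the best class of GENCODE vM1 and can differ from the authors' RefSeq TSS. The classes were coding with a CCDS tag, then coding with a basic tag, then any other. RefSeq promoters of GRCm38.p6, found by exact sequence for 6 of the 9 genes, started at offsets of -43 to 768 bp, the largest for an additional start of Apoe. The starts of Sox9, Dkk3 and Aqp4 had no match, so those of the printed Sox9 and Dkk3 stretches rest on GENCODE alone. Named were all 9 members, genes of each other list from the 3 with the largest change past the rule in either mark, and the 3 nearest symbols of each member. Tomm40 was added after its values had been seen. Members and lists were chosen with earlier results of these data known. Alternatives were another pseudocount, no centring or centring on marked genes, quantile normalization, leaving out low symbols, the mean of entries, other backgrounds and other stages. Python 3.11.15, numpy 2.4.6, pandas 2.3.3, scipy 1.17.1 and matplotlib 3.10.9 were used.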

Additional observations from a re-analysis of the deposited data

How the results depend on the processing

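No paired analysis was possible because each mark and stage has 1 library and no replicate number links libraries, and for the same reason no replicate could be left out. Of 50 recomputed counts 36 stayed within 1.5 times their main value and 14 moved, and of 144 recomputed changes of single genes 130 stayed inside the counting interval of the main change, 12 moved out of it and 2 reversed, where a reversal is a change of sign in a value past 2-fold. Counting smaller values too, 11 changed sign. Some of the values that stayed could not have moved. The median H3K27me3 change of all symbols from E17.5 to PN15 was 0.00, so leaving out centring returned the main H3K27me3 values. Taking the mean of entries left every occupancy of the members unchanged, since Gfap alone had several entries, with the same values. Only the median used for centring could differ there. Both settings are counted among the values that stayed, which raises those totals. With a pseudocount of 5 the count of genes with at least 2-fold lower H3K27me3 went from 1 to 0, with quantile normalized libraries to 2, and with centring on marked genes to 0, while that with higher H3K27me3 went from 3 to 5. The cause of the first pair was not tested. With quantile normalized libraries the H3K27me3 change of Sox9 moved from 1.73 to 2.60. Other stages were chosen after seeing the data. With PN1 in place of E17.5, 1 gene instead of 0 had higher H3K4me2 (Gfap, 1.58) and the H3K27me3 change of Glul reversed to 0.58. That of Sox9 moved to 0.77, within 2-fold. With PN7 in place of PN15, 2 genes had higher H3K4me2 (Glul, 1.19, and Sox9, 1.03, which reversed), 1 had lower (Gfap, -1.74, from 0.65), Vim (0.45), Kcnj10 (0.60) and Apoe (0.71) turned from below to above the median gene, Aqp4 (-0.76) turned the other way, H3K27me3 of Slc1a3 (-0.05) and Apoe (-0.17) turned below it, and 1 had higher H3K27me3 instead of 3. At the 99th percentile of olfactory receptors H3K27me3, and both marks, were above the background at 1 gene at E17.5 and 1 at PN15 instead of 4 and 3. At the 95th percentile of vomeronasal receptors 6 genes were above it at PN15, in H3K27me3 and in both marks. Occupancies near or under 3 (H3K4me2 of Aqp4 at PN7, H3K27me3 of Glul at PN1) were at the limit of the depth.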

Other observations

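In the 11 genes of progenitors and proliferation H3K27me3 was at least 2-fold higher from E17.5 to PN15 at 7 and lower at 0, with a median of 1.14, against 12.2% and 16.1% of all symbols. H3K4me2 was at least 2-fold lower at 1 of the 11 and higher at 0, against 12.8% and 5.17%. Of the 11, 3 were above the H3K27me3 background of 29 at PN15, against 19.3% of all symbols. Sfrp2, a secreted Wnt modulator of progenitors, had H3K27me3 of 4, 18, 80 and 82, and Six6 and Six3, eye field factors, had 3, 7, 11 and 24 and 3, 10, 16 and 22, below that background. In the 8 amacrine and the 8 ganglion cell genes H3K27me3 was at least 2-fold lower at 2 each and higher at 0, against 16.1% and 12.2%. The medians were -0.57 and -0.69. When centred on marked genes, the medians were -0.02 and -0.14, with 0 and 1 lower and 1 and 2 higher, against 4.83% and 27.9% of all symbols. Ptf1a, the factor of amacrine and horizontal cell fate, had 315, 390, 323 and 148, and Pou4f2, the ganglion cell factor, had 365, 507, 412 and 223, within 2-fold. H3K4me2 was at least 2-fold lower at 6 of the 8 ganglion cell genes and 3 of the 8 amacrine genes, against 12.8% of all symbols.

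In the 8 bipolar cell genes, whose cells are born in the same period as Mueller glia, H3K27me3 was lower at 4 and higher at 1, against 16.1% and 12.2% of all symbols, with a median of -1.10. When centred on marked genes it was lower at 1 and higher at 1, against 4.83% and 27.9%, with a median of -0.55. Grm6, the glutamate receptor of ON bipolar cells, had 451, 457, 293 and 121 with H3K4me2 of 30, 16, 20 and 33. In the 8 pigment epithelium genes H3K27me3 was at least 2-fold higher at 2 and lower at 1, with a median of -0.23. In the 6 lens genes it was higher at 0 and lower at 1, with a median of 0.31. The shares of all symbols were 12.2% and 16.1%. When centred on marked genes, both lists had 3 higher and 1 lower, against 27.9% and 4.83%. Ttr, the transthyretin gene of the first list, had H3K27me3 of 7, 15, 68 and 62. Dct of the same list went the other way, with 196, 183, 88 and 66. Gja3, a lens connexin, had 383, 352, 293 and 107. These lists were chosen with earlier results known and none of the differences has a replicate.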
